A study of Mus musculus with 13 samples.

Results

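The transcripts of keratinocytes, the cells that build the epidermis, were compared between the first and the second hour after induction of a p63 fusion protein. The cells were primary cultures from mouse. The 6 arrays, of 13 in the series, were chosen by their labelled time: those at 20, 40 and 60 min after tamoxifen formed hour 1, and those at 80, 100 and 120 min formed hour 2. Every culture of the course, the untreated one included, carried a retrovirus that expresses the DNp63alpha isoform joined to an estrogen receptor domain, and tamoxifen was the inducing agent. The strain, the age and number of the animals and the viral promoter are not given in the sources used here. Each time had 1 array, so neighbouring times stood in for replicates and change inside an hour counted as spread. No source says that the times came from separate cultures, so a p-value here reflects array-to-array spread alone, which may be technical. Total RNA was extracted with Trizol and read as biotinylated cRNA on Affymetrix arrays. The untreated array and the 6 arrays of 140 to 240 min gave context only. Cells without the fusion protein and a course without tamoxifen were not analysed here, so induction, elapsed time, handling of the cultures and the processing order of the arrays cannot be told apart.

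p63 is a transcription factor of the p53 family that maintains the basal layer of stratified epithelia. The DNp63alpha isoform lacks the amino-terminal activation domain of the full-length forms and can raise some target genes and lower others. A protein joined to the ligand-binding domain of the estrogen receptor is held inactive until tamoxifen binds, so induction acts on protein that the cell already holds. Keratinocytes in culture also keep a set of stress and growth factor genes active, among them immediate early genes, whose transcripts turn over within minutes to hours and which can therefore fall quickly.

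The cells carried the transcripts of their label. Of the keratins of basal keratinocytes, Krt5 stood at the 99.9th and Krt14 at the 100.0th percentile of all 12394 genes by mean level. Krt15, a further basal keratin, stood at the 23.6th. Markers of other cells covered a wide range. Ptprc of immune cells stood at the 1.2th percentile but Csf1r at the 63.9th and Cd68 at the 58.0th. Of fibroblast markers Lum stood at the 5.1th, Dcn at the 17.4th and Col1a1 at the 47.0th, but Fn1 at the 75.2th, Vim at the 83.7th, Sparc at the 91.8th and S100a4 at the 96.7th. Pecam1 of endothelium stood at the 18.1th and Acta2 of smooth muscle at the 95.3th, and the pigment cell genes Dct and Tyrp1 at the 93.1th and 88.4th. Array medians lay between 237.4 and 251.5 intensity units over the 13 arrays, and the 3' to 5' ratio of Gapdh, a measure of RNA integrity, between 0.899 and 0.937. The same ratio of Actb was 1.16 to 1.21 in hour 1 and 1.19 to 1.27 in hour 2. Values of the spiked control BioB were 217 to 304 intensity units in hour 1 and 386, 431 and 239 in hour 2, and the 60 min array had the highest 18S ribosomal RNA signal of the course (442, against 147 to 270 in the other arrays). The part of these measures in the results was not tested.

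Between the hours, 1662 of 7436 tested genes (22.4%) passed the test, 801 (10.8%) higher and 861 (11.6%) lower in hour 2. Levels are log2(intensity + 16), the test was limma with Benjamini-Hochberg adjustment over the 7436 genes at a threshold of 0.05, and each difference below is hour 2 minus hour 1 with its SE, 3 arrays against 3. Most changes were small. The median called gene differed 1.23-fold, 54 rises and 70 falls exceeded 1.5-fold, 4 rises and 11 falls exceeded 2-fold, and no gene reached 3-fold. In 3037 genes (40.8%) the 3 values of one hour all lay on one side of the 3 of the other, 1498 with hour 2 above and 1539 below. Of the called genes 1649 had such separate values and 13 overlapped. The median difference over all tested genes was 0.0058 on the log2 scale, so gains and losses nearly balanced on these scaled arrays. When each array's levels were centred on their median, 656 genes were higher and 931 lower, a split shifted towards falls. With 1 array left out the count lay between 907 (without 100 min) and 1753 (without 60 min), and it was 1067 without 40 min. The rises numbered 523 without 40 min, 454 without 100 min and 497 without 120 min, and the falls 544 and 453 without 40 and 100 min. Of the 1662 genes 783 (380 higher, 403 lower) were called in every one of these 6 fits.

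**Figure D1:**
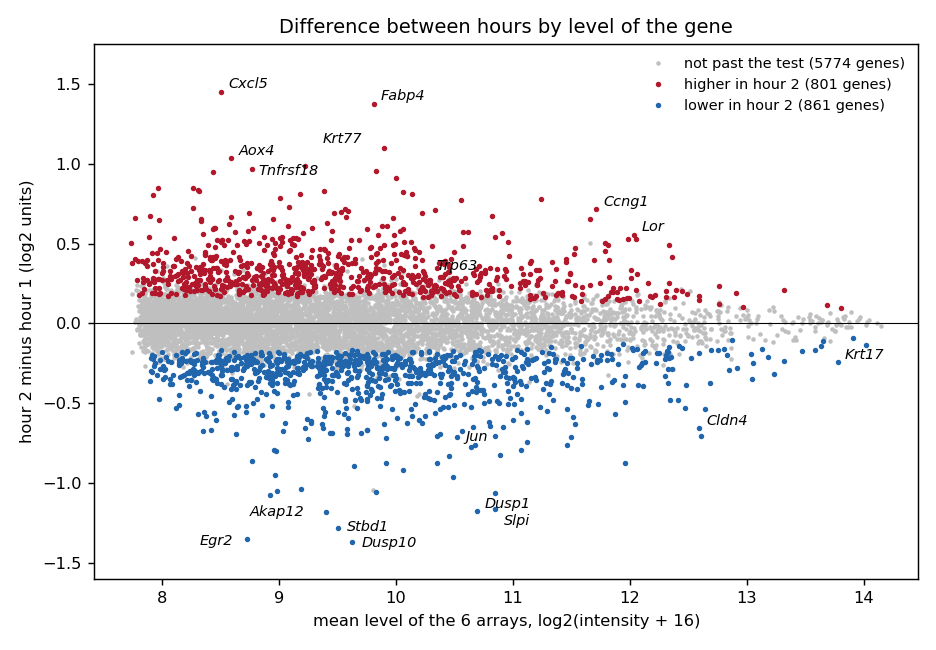
Difference between hour 2 and hour 1 (log2 units, y axis) against the mean level of the 6 arrays (log2(intensity + 16), x axis), 1 point per tested gene. Red points are the 801 genes called higher and blue points the 861 called lower. The differences of the brightest genes are small, as for Krt17 (-0.24), and the largest lie at middle levels, as for Cxcl5 (1.45) and Dusp10 (-1.37).

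Of the steps between neighbouring arrays, that from 60 to 80 min was the largest in the median. From 60 to 80 min the median absolute difference of a gene was 0.126 on the log2 scale, and 77 genes rose and 52 fell by over 1.5-fold between these arrays. The steps within hour 1 were 0.0709 (20 to 40 min) and 0.101 (40 to 60 min), and those within hour 2 were 0.0704 and 0.0829. The step at 180 to 200 min came close in its median (0.117) but ran almost wholly downward, with 197 genes lower and 7 higher by over 1.5-fold, and 220 to 240 min had 233 higher and 0 lower. The called genes were chosen on these 6 arrays for a difference between the hours with little spread inside them, a choice that favours a jump at this boundary, so their steps are given as a description. For the median called rise the 60 to 80 min step was 92.9% of its whole difference between hour means, with quartiles of 71.9% and 115.6%. For the median called fall it was 86.7%, with quartiles of 61.3% and 112.2%. Under 25% of the difference lay in that step for 17 of the 801 rises and 29 of the 861 falls. With a straight line of time fitted beside the step, the step passed the test in 16 genes. After 120 min the medians of the called genes stayed away from hour 1. Relative to hour 1 the median of the 801 rises was 0.02 in the untreated array, 0.23 to 0.29 in hour 3 and 0.30 to 0.35 in hour 4, and that of the 861 falls was -0.05, then -0.31 to -0.27 and -0.32 to -0.23. Untreated cells and hours 3 and 4 had no part in the test that called these genes. Their arrays did enter the mean level that set the probe set of each gene and the filter. The mean of hour 1, the reference here, entered the test itself.

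**Figure D2:**
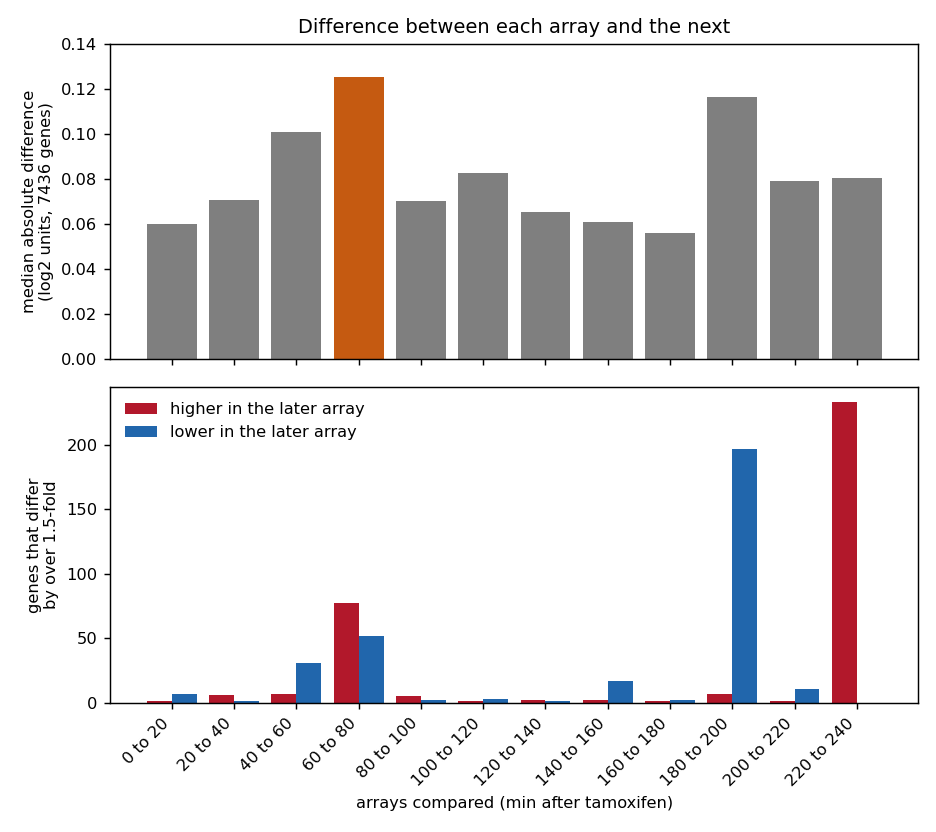
Difference between each array and the next along the course. Upper panel, median absolute difference over 7436 genes in log2 units, with the step from 60 to 80 min in orange; lower panel, number of genes higher (red) or lower (blue) in the later array by over 1.5-fold. The 60 to 80 min step has the tallest bar (0.126) and holds both rises (77 genes) and falls (52 genes), unlike the steps next to the 200 and 220 min arrays.

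The gene that rose most was Cxcl5, a chemokine that attracts neutrophils. It stood at 7.94, 7.56 and 7.85 in hour 1 and 9.18, 9.17 and 9.35 in hour 2, each triple in the order of time. The hours were far apart and every array of hour 2 was about equally high, a 2.73-fold difference (1.45 ± 0.0985, adjusted p = 0.000133). Fabp4, a fatty acid carrier best known from fat cells, read 9.42, 8.96 and 8.98 in hour 1 and 10.48, 10.62 and 10.40 in hour 2. All later arrays were again above all earlier ones, by 2.6-fold (1.38 ± 0.116, adjusted p = 0.000205), with the highest value at 100 min. The keratin gene Krt77 read 9.37, 9.47 and 9.21 in hour 1 and 10.64, 10.59 and 10.12 in hour 2 and rose 2.14-fold (1.10 ± 0.129, adjusted p = 0.000722). Its 120 min value was lower than the other 2 of that hour, yet above hour 1. Aox4, an aldehyde oxidase, read 8.21, 8.14 and 7.88 in hour 1 and 9.20, 9.14 and 8.99 in hour 2 (1.03 ± 0.0919, adjusted p = 0.000205). Its values fell slightly through hour 1 and through hour 2, with the whole rise between 60 and 80 min.

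Next came enzymes, receptors and secreted regulators. The adenylate kinase Ak1 (0.99 ± 0.0787, adjusted p = 0.000205), the carboxylesterase Ces2g (0.95 ± 0.0879, adjusted p = 0.000244) and the xylulose reductase Dcxr (0.91 ± 0.0749, adjusted p = 0.000205) each rose. Tnfrsf18, the TNF receptor family member GITR, stood at 8.37, 8.17 and 8.31 in hour 1 and 9.18, 9.22 and 9.35 in hour 2 (0.96 ± 0.0715, adjusted p = 0.00019), with narrow and well separated hours. Sostdc1, a secreted antagonist of BMP and Wnt ligands, read 8.20, 7.87 and 7.83 in hour 1 and 8.89, 8.90 and 8.96 in hour 2 (0.95 ± 0.0919, adjusted p = 0.000315). Its hours were separate. Ackr3, a scavenging receptor for CXCL12, rose by 0.85, Car12, a carbonic anhydrase, by 0.84, and Ddit4l, an inhibitor of mTOR signalling, by 0.85. Cpped1 (0.83), Fcgbp (0.83) and the gamma-synuclein gene Sncg (0.82) completed the 15 largest rises past the test with separate hours.

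The largest falls included 2 phosphatases that switch off stress kinases and an early transcription factor. Dusp10, which acts on p38 and JNK, stood at 10.40, 10.46 and 10.08 in hour 1 and 9.23, 8.79 and 8.81 in hour 2. It dropped between 60 and 80 min and again to 100 min, 2.58-fold in all (-1.37 ± 0.131, adjusted p = 0.000298). Dusp1, a phosphatase of the same family, read 11.29, 11.43 and 11.14 in hour 1 and 10.38, 10.03 and 9.92 in hour 2 (-1.18 ± 0.115, adjusted p = 0.000327), with every later array below every earlier one. Egr2, a zinc finger factor induced by growth factors, read 9.41, 9.74 and 9.05 in hour 1 and 8.26, 7.86 and 8.03 in hour 2 (-1.35 ± 0.158, adjusted p = 0.000697). Its 60 min value already lay below the other 2 of hour 1, and its hours did not overlap. Stbd1, which tethers glycogen to membranes, had steadier hours, at 10.14, 10.22 and 10.08 in hour 1 and 8.96, 8.78 and 8.86 in hour 2 (-1.28 ± 0.067, adjusted p = 2.18e-05). Slpi, a secreted inhibitor of leukocyte proteases, was as steady, at 11.46, 11.49 and 11.33 in hour 1 and 10.27, 10.29 and 10.23 in hour 2 (-1.16 ± 0.0593, adjusted p = 2.18e-05). For both genes the spread within an hour was small beside the drop.

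The scaffold of protein kinase A Akap12 (-1.18 ± 0.111, adjusted p = 0.000259) and the lipid droplet gene Cidea (-1.06 ± 0.125, adjusted p = 0.000722) also fell by over 2-fold. Among peptides that act on blood vessels, adrenomedullin, Adm, fell by 1.07 and endothelin 1, Edn1, fell by 1.05. Edn1 read 9.43, 9.61 and 9.50 in hour 1 and 8.68, 8.32 and 8.39 in hour 2, with separate hours and its lowest value at 100 min. Ptgs2, the inducible cyclooxygenase of prostaglandin synthesis, read 11.40, 11.58 and 11.16 in hour 1 and 10.65, 10.07 and 10.23 in hour 2 (-1.06 ± 0.146, adjusted p = 0.00145). A drop was under way at 60 min and its lowest value came at 100 min. The late cornified envelope gene Lce3a (-1.04 ± 0.0841, adjusted p = 0.000205) and Ly6g6c (-0.97 ± 0.103, adjusted p = 0.000484) fell as well. The stress factors Atf3 (-0.95) and Ddit3 (-0.90) and the kinase Plk3 (-0.92) closed the 15 largest falls past the test with separate hours.

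**Figure D3:**
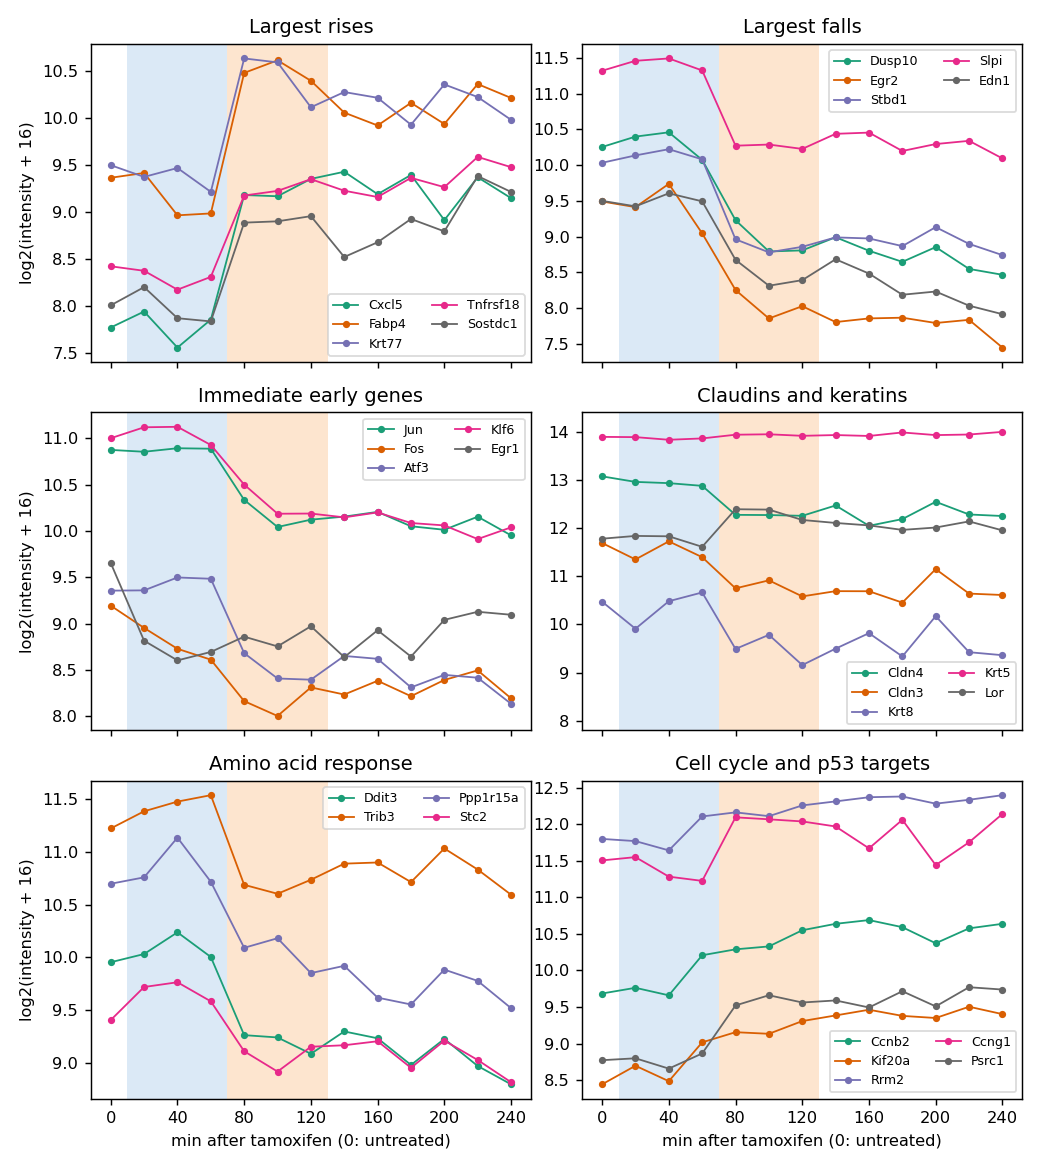
Level of named genes in each of the 13 arrays (log2(intensity + 16), y axis) against min after tamoxifen (x axis, 0 for untreated cells), 1 array per point; hour 1 is shaded blue and hour 2 orange. Most lines bend between 60 and 80 min and stay near the new level, as for Slpi (11.33 to 10.27), while Ccnb2 had moved by 60 min (9.66 to 10.21) and Egr1 had dropped by 20 min (9.65 to 8.82).

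Immediate early transcription factors, which cells switch on within minutes of a stimulus, gave more falls than rises. Of 28 tested, 12 fell, 3 rose and the rest did not pass, a share called of 53.6% beside 22.4% of all genes, with a median difference of -0.16 against 0.0058 over all genes. Atf3, a bZIP factor of stress responses, read 9.36, 9.50 and 9.48 in hour 1 and 8.68, 8.41 and 8.40 in hour 2, a drop of 1.93-fold. Klf6, a Kruppel-like factor, read 11.12, 11.12 and 10.93 in hour 1 and 10.50, 10.19 and 10.19 in hour 2 (-0.76 ± 0.0932, adjusted p = 0.000824), with separate hours. The AP-1 subunit Jun held steady through hour 1 and then fell, at 10.85, 10.89 and 10.89 in hour 1 and 10.33, 10.04 and 10.12 in hour 2 (-0.71 ± 0.0755, adjusted p = 0.000476). Its partner Fos read 8.95, 8.73 and 8.61 in hour 1 and 8.17, 8.01 and 8.31 in hour 2 (-0.60 ± 0.101, adjusted p = 0.00351), on the way down from 9.19 in untreated cells. Myc, a growth regulator, read 11.51, 11.40 and 11.51 in hour 1 and 11.16, 11.05 and 11.09 in hour 2 (-0.37 ± 0.0541, adjusted p = 0.0019). The 3 that rose were Id1 (0.57), Id2 (0.46) and Id3 (0.27), inhibitors of bHLH factors that BMP signals also induce, and Id3 was named after its values were seen. Egr1 followed another course. It read 9.65 in untreated cells and 8.82, 8.60 and 8.70 in hour 1 and 8.86, 8.76 and 8.97 in hour 2, so hours 1 and 2 overlapped (0.16 ± 0.0758, adjusted p = 0.169).

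Of 23 RNA decay and growth regulators of the immediate early set 13 fell and 1 rose, with a median of -0.28. The share called was 60.9%, beside 22.4% of all genes. Ccn2, a matricellular growth factor, read 10.61, 10.94 and 10.81 in hour 1 and 10.07, 9.89 and 9.77 in hour 2 (-0.88 ± 0.0978, adjusted p = 0.000591). Zfp36, which sends AU-rich transcripts to decay, read 10.61, 10.83 and 10.41 in hour 1 and 10.19, 10.15 and 9.82 in hour 2 (-0.56 ± 0.12, adjusted p = 0.0104), with hours that did not overlap but a wide spread in each. Gadd45a, a growth arrest gene, fell by 0.67, and the rise was that of the kinase Sgk1 (0.49 ± 0.0579, adjusted p = 0.000722). Of 11 phosphatases and Sprouty inhibitors of MAP kinases 3 fell and 0 rose, Dusp16 (-0.67 ± 0.114, adjusted p = 0.00365) beside Dusp10 and Dusp1, and 5 fell without the 60 min array. In EGF receptor signalling, the ligands Epgn (-0.62 ± 0.123, adjusted p = 0.00793) and Ereg (-0.50 ± 0.0968, adjusted p = 0.0071) and the inhibitor Errfi1 (-0.30 ± 0.0574, adjusted p = 0.00696) fell, 3 of 14 with 0 rising, or 2 rising without 20 min. The share called was 21.4% in this list, with a median of -0.03, and 27.3% in that of the phosphatases, beside 22.4% of all genes. Only 22% of the fall of Epgn lay between 60 and 80 min, and it read 11.60 at 40 min and 11.12 at 60 min. In prostaglandin synthesis, Ptges, the synthase that acts after Ptgs2, rose while Ptgs2 fell. Ptges read 10.01, 9.92 and 9.96 in hour 1 and 10.36, 10.38 and 10.38 in hour 2 (0.41 ± 0.0536, adjusted p = 0.00116), and 3 of the 8 genes of that list fell without the 60 min array.

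Promoters of the falling early and cytokine genes were read to show the letters in front of their starts. RefSeq promoters of assembly GRCm38.p6 were found for 6066 of the tested genes (7819 promoters), 662 of them called higher and 686 lower, and the 250 bases before each start were searched on both strands. Shown are the genes of these lists whose windows held the most matches, 5' to 3' on the strand of the gene, with matches in capitals.
Klf6, chr13:5861239-5861488, plus strand: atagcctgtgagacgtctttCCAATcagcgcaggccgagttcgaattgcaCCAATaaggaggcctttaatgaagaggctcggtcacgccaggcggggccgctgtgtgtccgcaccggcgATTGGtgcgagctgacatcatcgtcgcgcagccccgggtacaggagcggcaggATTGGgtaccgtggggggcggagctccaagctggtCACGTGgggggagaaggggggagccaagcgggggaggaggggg
Il1a, chr2:129309973-129310222, minus strand: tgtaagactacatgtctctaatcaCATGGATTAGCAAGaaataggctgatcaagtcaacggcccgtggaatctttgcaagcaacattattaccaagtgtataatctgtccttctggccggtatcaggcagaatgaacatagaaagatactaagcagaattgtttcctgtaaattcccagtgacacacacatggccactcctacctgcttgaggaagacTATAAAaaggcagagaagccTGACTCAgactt
Egr2, chr10:67535249-67535498, plus strand: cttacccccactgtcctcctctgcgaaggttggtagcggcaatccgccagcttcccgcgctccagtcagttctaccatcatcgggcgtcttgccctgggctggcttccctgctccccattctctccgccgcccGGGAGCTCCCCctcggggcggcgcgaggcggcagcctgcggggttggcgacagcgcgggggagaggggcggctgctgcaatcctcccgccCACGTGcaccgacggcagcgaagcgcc
Il18, chr9:50554450-50554699, plus strand: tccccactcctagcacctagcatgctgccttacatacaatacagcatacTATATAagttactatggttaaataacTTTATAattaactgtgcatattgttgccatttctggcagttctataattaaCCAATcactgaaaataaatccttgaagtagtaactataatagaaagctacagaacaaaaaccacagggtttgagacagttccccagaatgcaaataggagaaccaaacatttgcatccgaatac
In Klf6 the capitals mark CCAAT boxes (CCAAT) at -230, -200, -131 and -78 from the start, the last 2 on the other strand, and an E box (CACGTG) at -43. In Il1a they mark a p53 family site from -226 to -213, a TATA box (TATAAA or TATATA) at -32 and an AP-1 site (TGANTCA) at -12. The Egr2 window held an NF-kB site in 2 overlapping registers from -117 to -107 and an E box at -27. That of Il18 held TATA boxes at -201 and -175, the second on the other strand, and a CCAAT box at -124.

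A CArG box, the site of serum response factor, stood before other starts of the early set. It read CCTTTTTTGG from -72 to -63 before a second start of Egr2 and CCATAAAAGG from -58 to -49 before Zfp36. Such a box was in 2.11% of promoters of genes that fell, 0.688% of those that rose and 1.28% of all. Cyclic AMP response elements (TGACGTCA) were in 3.11%, 1.61% and 2.61% in that order, and amino acid response elements (TGATGNAAT) in 0.555%, 0.115% and 0.32%. AP-1 sites were in 4.66%, 5.16% and 4.6%, p53 family sites in 3.88%, 4.59% and 4.35%, NF-kB sites in 10.5%, 7.91% and 8.93%, and E boxes in 8.99%, 6.31% and 8.65%. CCAAT boxes were in 32.3%, 39.4% and 34.9%, TATA boxes in 9.43%, 7.11% and 7.94%, and E2F sites (TTTCGCGC or TTTGGCGC) in 1.55%, 1.26% and 1.46%. These shares describe letters in a window and were not tested. They count each start as its own promoter, so 1 site near several starts counts more than once. Another CArG box, CCATATATGG, shared by neighbouring starts of Egr2, was counted in that way. The 2.11% in genes that fell rested on 19 promoters, several of them of Egr2.

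Cytokine genes split, with Cxcl5 rising as several interleukin genes fell. Of 18 tested chemokines and cytokines, 7 fell and 2 rose, with a median of -0.08. Il1a, an alarm cytokine stored in keratinocytes, read 11.26, 11.19 and 10.86 in hour 1 and 10.62, 10.36 and 10.48 in hour 2 (-0.62 ± 0.105, adjusted p = 0.00394). Its antagonist Il1rn fell too, at 9.97, 10.01 and 9.69 in hour 1 and 9.40, 9.20 and 9.30 in hour 2 (-0.59 ± 0.0899, adjusted p = 0.00237). Il18, of the same family, read 9.58, 9.93 and 9.60 in hour 1 and 9.14, 9.11 and 8.88 in hour 2 (-0.66 ± 0.104, adjusted p = 0.00285), with separate hours and its highest value at 40 min. NF-kB genes went both ways, with 2 rising and 3 falling of 11. The adhesion molecule Icam1, a target of that pathway, read 8.08, 7.98 and 7.97 in hour 1 and 8.67, 8.66 and 8.64 in hour 2, with steady and separate hours (0.65 ± 0.056, adjusted p = 0.000205). The kinase Ikbke rose as well (0.52 ± 0.0831, adjusted p = 0.00291). The inhibitors Tnip1 (-0.42 ± 0.0914, adjusted p = 0.0109) and Nfkbib (-0.28 ± 0.0608, adjusted p = 0.0116) fell. Of 9 TNF receptors, Tnfrsf21 rose (0.21 ± 0.0543, adjusted p = 0.0213, lost without 40, 100 or 120 min) beside Tnfrsf18, and Tnfrsf12a, the TWEAK receptor, fell (-0.39 ± 0.0626, adjusted p = 0.00291).

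Among 16 secreted vascular and growth signals, 6 fell and 2 rose, with a median of -0.08, and 1 rose without 20, 40 or 80 min and 0 without 100 min. Besides Adm and Edn1, the falls included Artn, a neurotrophic factor of the GDNF family, at 9.87, 9.80 and 9.73 in hour 1 and 9.07, 9.02 and 9.24 in hour 2 (-0.69 ± 0.0722, adjusted p = 0.000466), and the glycoprotein hormone Stc2 (-0.63 ± 0.0777, adjusted p = 0.000875). Of 16 matrix proteases and inhibitors 4 fell, and 1 rose in the full comparison but not without 40, 60, 80, 100 or 120 min. Plaur, the urokinase receptor, read 10.21, 10.42 and 10.19 in hour 1 and 9.60, 9.49 and 9.58 in hour 2 (-0.72 ± 0.0735, adjusted p = 0.000411), and Adamts1 fell by 0.66. The cathepsin gene Ctsl fell by 0.18 (0.0482 SE, adjusted p = 0.0286), and that call was lost without 20, 40, 100 or 120 min. Of 31 genes of serum response factor, YAP and the cytoskeleton 9 fell and 1 rose; 5 fell without the 100 min array, and 2 rose without that of 60 min. Zyx, a focal adhesion protein, fell (-0.38 ± 0.0578, adjusted p = 0.00237) with Akap12 and Ccn2, while Plek2, a pleckstrin of the membrane skeleton, rose (0.66 ± 0.0933, adjusted p = 0.00166).

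p63 itself was measured on 3 probe sets. The brightest read 10.10, 10.03 and 10.18 in hour 1 and 10.39, 10.34 and 10.46 in hour 2, a 1.23-fold rise (0.30 ± 0.062, adjusted p = 0.00951) with separate hours. A second probe set read 9.75, 9.40 and 9.31 in hour 1 and 9.90, 10.96 and 9.47 in hour 2, and the last 7.86, 7.86 and 7.86 and then 8.20, 8.59 and 7.83. Both were highest at 100 min, their hours overlapped, and whether a probe set reads the cell's own transcript or the viral one was not resolved. Direct epidermal targets of p63 passed the test about as often as all genes. The share called was 25%, beside 22.4% of all genes. Of 32 tested, 3 rose, Trp63 itself among them, and 5 fell, with a median of 0.02. Without the 40, 100 or 120 min array 0 of them fell, without 20 or 80 min 2, and without 120 min 1 rose. The fallers included the claudin Cldn1 (-0.29 ± 0.0797, adjusted p = 0.0307), the TGF-beta inhibitor Smad7 (-0.28 ± 0.0758, adjusted p = 0.027) and the differentiation factor Ovol1 (-0.25 ± 0.0594, adjusted p = 0.0159). The 60 to 80 min step held 15% of the fall of Cldn1 and 21% of that of Smad7. On that probe set Cldn1 went from 11.70 at 40 min to 11.39 at 60 min. A second one of Cldn1 read 11.03, 11.10 and 10.84 in hour 1 and 10.59, 10.37 and 10.51 in hour 2, a decline spread over several arrays.

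Genes of basal keratinocytes went both ways. Of 22 basal genes 6 rose, Trp63 among them, and 5 fell, with a median of 0.03. The risers were led by Cav1, the coat protein of caveolae, at 11.78, 11.70 and 11.68 in hour 1 and 12.19, 12.28 and 12.28 in hour 2 (0.53 ± 0.0465, adjusted p = 0.000205), and held the laminin and integrin genes Lama3 (0.28 ± 0.0855, adjusted p = 0.0413), Lamb3 (0.25 ± 0.0747, adjusted p = 0.0381) and Itga6 (0.27 ± 0.0616, adjusted p = 0.0148). Only 2 rose without the 120 min array, and 3 fell without that of 20 min. The hair follicle factor Sox9 fell (-0.44 ± 0.0721, adjusted p = 0.00316), and so did Krt17, a keratin of wounded and follicular cells, and its relatives Krt16 (-0.24), Krt6b (-0.16) and Krt6a (-0.09), these 3 named after their values were seen. Krt17 read 13.92, 13.87 and 13.91 in hour 1 and 13.69, 13.63 and 13.65 in hour 2, a fall of 1.18-fold with very tight hours (-0.24 ± 0.026, adjusted p = 0.000477). The basal pair Krt5 (0.07 ± 0.0239, adjusted p = 0.0557) and Krt14 (-0.02 ± 0.0224, adjusted p = 0.674) and the suprabasal pair Krt1 (-0.05 ± 0.0663, adjusted p = 0.616) and Krt10 (-0.01 ± 0.0624, adjusted p = 0.957) did not pass, and Krt5 and Krt14 lay near the top of the measured range.

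Of 41 tested genes of the cornified envelope and differentiation 12 fell and 4 rose, a share called of 39.0% beside 22.4% of all genes, with a median of -0.12, and the count of falls was 7 without 20 or 40 min, 20 without 60 min and 6 without 120 min. Loricrin, Lor, a major envelope protein, read 11.84, 11.83 and 11.61 in hour 1 and 12.39, 12.38 and 12.17 in hour 2 (0.56 ± 0.077, adjusted p = 0.00156). It rose with Krt77 while the protease inhibitor Cst6 fell, at 12.86, 13.11 and 12.91 in hour 1 and 12.37, 12.40 and 12.01 in hour 2 (-0.70 ± 0.101, adjusted p = 0.00178), as did the late envelope gene Lce3c (-0.54 ± 0.0763, adjusted p = 0.00173). Of 10 desmosome genes 1 passed, the cadherin Dsc2 (3 fell without 60 min), at 9.95, 10.09 and 9.49 in hour 1 and 9.48, 9.25 and 9.21 in hour 2 (-0.53 ± 0.14, adjusted p = 0.0246). Its steepest drop lay between 40 and 60 min, 1% of its difference fell between 60 and 80 min, and the call was lost without 20, 40, 100 or 120 min. Its neighbour Dsc3 did not pass (-0.35 ± 0.119, adjusted p = 0.0623).

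Tight junction genes gave falls only: 7 of 12 fell, 0 rose and the median was -0.27. The share called was 58.3%, beside 22.4% of all genes. Cldn4, a claudin that seals suprabasal cells, read 12.96, 12.93 and 12.88 in hour 1 and 12.27, 12.27 and 12.25 in hour 2 (-0.66 ± 0.0356, adjusted p = 2.18e-05). Cldn3 read 11.35, 11.72 and 11.40 in hour 1 and 10.75, 10.91 and 10.58 in hour 2 (-0.74 ± 0.109, adjusted p = 0.002) and Cldn7 9.43, 9.75 and 9.84 in hour 1 and 9.05, 9.26 and 8.97 in hour 2 (-0.58 ± 0.11, adjusted p = 0.00644). The polarity gene Pard6b read 9.22, 9.53 and 9.31 in hour 1 and 8.62, 8.52 and 8.54 in hour 2 (-0.79 ± 0.0805, adjusted p = 0.000408). In all 4 the hours were separate, and with 1 array left out 5 to 7 members of the list were called lower. The simple-epithelium keratins moved the same way: Krt8 read 9.91, 10.48 and 10.66 in hour 1 and 9.49, 9.78 and 9.16 in hour 2 (-0.87 ± 0.195, adjusted p = 0.0124) and Krt18 fell by 0.55. Both keratins are also markers of Merkel cells.

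Transcription factors of epidermal fate went both ways, with 7 rising and 5 falling of 31. Cebpd rose (0.41 ± 0.0762, adjusted p = 0.0057) as its relative Cebpb fell (-0.38 ± 0.0485, adjusted p = 0.00101), both of them C/EBP factors of differentiation. The nuclear receptor Rora rose (0.45 ± 0.0995, adjusted p = 0.0116, lost without 100 min) and Ets2, a target of growth factor signals, fell (-0.50 ± 0.0717, adjusted p = 0.0018). The rises numbered 4 without 20 min, 3 without 40, 80, 100 or 120 min and 4 with median centring, and the falls 3 without 20 or 40 min and 2 without 100 or 120 min. In the Notch pathway, which drives keratinocytes out of the basal layer, the ligand Dll1 (0.54 ± 0.084, adjusted p = 0.00267), the receptor Notch1 (0.34 ± 0.0729, adjusted p = 0.0105) and Hes6 (0.28 ± 0.0724, adjusted p = 0.024) rose. The target Hes1 fell, at 9.32, 9.32 and 9.29 in hour 1 and 8.88, 8.97 and 8.94 in hour 2 (-0.38 ± 0.0534, adjusted p = 0.00167), and the ligand Jag1 did not pass (-0.07 ± 0.102, adjusted p = 0.662). Further probe sets of Notch1 and Hes6 differed by 0.124 and 0.05, with overlapping hours. Altogether 3 of 14 rose and 4 fell, with 1 fall without 20, 100 or 120 min and 2 without 40 min. Of the 3 rises 2 were called with each of the 6 arrays left out.

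Of 22 Wnt genes 6 rose and 1 fell, with a median of 0.04. The share called was 31.8%, beside 22.4% of all genes. With each array left out 6 rose, and 0 fell without 40, 80 or 100 min and 2 without 60 min. Beside Sostdc1 these held the ligands Wnt4, at 9.77, 9.78 and 9.75 in hour 1 and 10.21, 10.45 and 10.40 in hour 2 (0.59 ± 0.07, adjusted p = 0.000722), and Wnt10a, at 8.74, 8.60 and 8.89 in hour 1 and 9.20, 9.36 and 9.27 in hour 2 (0.53 ± 0.0799, adjusted p = 0.00227). Porcn, the enzyme that acylates Wnt ligands for secretion, rose as well (0.47 ± 0.0658, adjusted p = 0.00159). In TGF-beta and BMP signalling 5 of 22 rose and 3 fell, with a share called of 36.4% and a median of 0.09. Id1, read at 10.81 in untreated cells, stood at 10.27, 10.41 and 10.31 in hour 1 and 10.83, 10.94 and 10.94 in hour 2 (0.57 ± 0.0608, adjusted p = 0.000476). The values of hour 2 lay near that of the lone untreated array, and the difference of hour 1 from that array did not pass the test (-0.48, limma adjusted p = 0.335). Id2 (0.46 ± 0.0813, adjusted p = 0.00477) and Id4 (0.34 ± 0.0598, adjusted p = 0.0047) rose with it, and the corepressor Tgif1 fell (-0.47 ± 0.0587, adjusted p = 0.000889). The rises numbered 3 without 100 or 120 min and the falls 1 without 20, 40, 100 or 120 min.

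**Figure D4:**
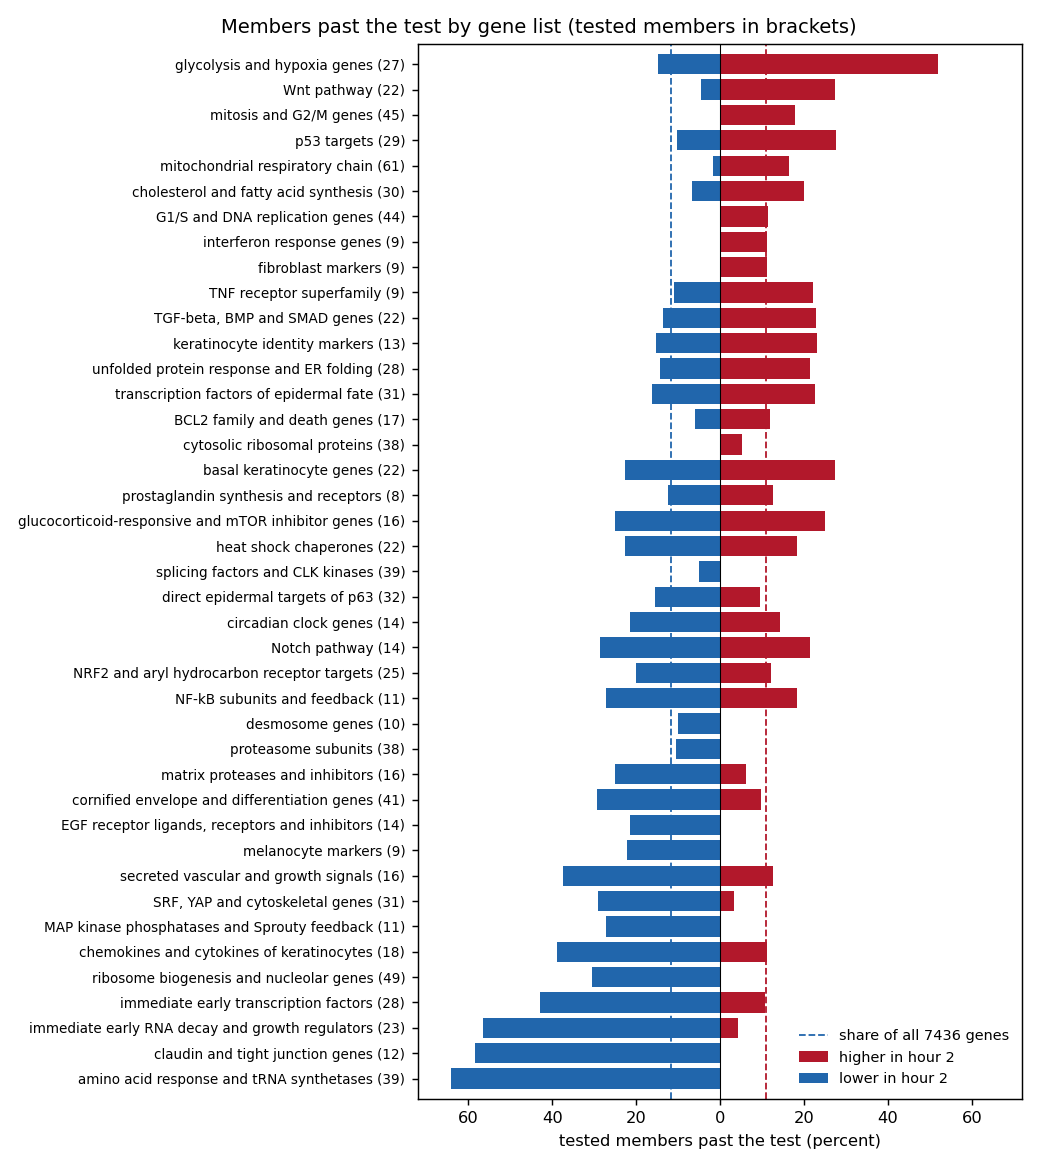
Share of each gene list past the test, higher in hour 2 to the right (red) and lower to the left (blue), for the 41 lists with at least 8 tested members (numbers in brackets); x axis in percent of tested members. Dashed lines mark the shares of all 7436 genes, 10.8% and 11.6%. Amino acid response genes reach furthest left (25 of 39) and glycolysis and hypoxia genes furthest right (14 of 27).

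Among the 45 lists the amino acid response had the largest share of falls. These genes, switched on by the factor ATF4 when amino acids or protein folding fail, include the tRNA synthetases, and 25 of 39 fell while 0 rose (64.1% called, median -0.25). The stress factor Ddit3 (CHOP) read 10.03, 10.24 and 10.002 in hour 1 and 9.26, 9.24 and 9.08 in hour 2 (-0.90 ± 0.0788, adjusted p = 0.000205). Trib3, a pseudokinase of the same arm, climbed through hour 1 and then dropped, at 11.39, 11.48 and 11.54 in hour 1 and 10.69, 10.60 and 10.74 in hour 2 (-0.79 ± 0.0599, adjusted p = 0.00019). Ppp1r15a, which restores translation after stress, read 10.76, 11.14 and 10.72 in hour 1 and 10.09, 10.18 and 9.85 in hour 2 (-0.83 ± 0.118, adjusted p = 0.00177). All had separate hours, and 21 to 24 members were called lower with 1 array left out, 20 of the 25 in every such fit. The alanyl-tRNA synthetase gene Aars fell by 0.56 (0.058 SE, adjusted p = 0.000437). Stc2 and Cebpb, given above, are also members.

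The other stress lists were mixed. Of 28 genes of the unfolded protein response 6 rose and 4 fell, with a median of 0.02. The lectin chaperone Calr rose (0.29 ± 0.0579, adjusted p = 0.00787), whereas the transcription factors Xbp1 (-0.37 ± 0.0799, adjusted p = 0.0114) and Atf6 (-0.36 ± 0.0675, adjusted p = 0.00624) and the oxidase Ero1a (-0.31 ± 0.0672, adjusted p = 0.011) fell. The count of rises was 3 without 80 or 100 min. Heat shock genes went both ways as well, 4 up and 5 down of 22, or 3 down without 100 min. Hspa4l read 9.21, 9.40 and 9.02 in hour 1 and 9.98, 9.96 and 9.84 in hour 2 (0.72 ± 0.0918, adjusted p = 0.00101) and the major inducible chaperone Hspa1b rose (0.42 ± 0.0553, adjusted p = 0.00124), while the small chaperones Hspb8 (-0.71 ± 0.0605, adjusted p = 0.000205) and Cryab (-0.51 ± 0.117, adjusted p = 0.0142) fell. Of 25 targets of NRF2 and the aryl hydrocarbon receptor 3 rose and 5 fell, or 3 without 120 min. The heme oxygenase gene Hmox1 peaked at 40 min, at 10.47, 11.11 and 10.52 in hour 1 and 10.07, 10.18 and 9.74 in hour 2 (-0.70 ± 0.165, adjusted p = 0.0155), and its call was lost without 120 min. Cyp1b1 fell mostly between 40 and 60 min, at 9.44, 9.73 and 8.95 in hour 1 and 8.84, 8.74 and 8.51 in hour 2 (-0.68 ± 0.169, adjusted p = 0.0202), and its call was lost without 20, 100 or 120 min. The reductases Akr1b8 (0.57 ± 0.0602, adjusted p = 0.000476) and Cbr3 (0.49 ± 0.0632, adjusted p = 0.00112) rose. The metallothionein gene Mt1, named after its values were seen, differed by over 2-fold yet did not pass, at 9.51, 9.94 and 11.52 in hour 1 and 9.31, 9.27 and 9.26 in hour 2 (-1.05 ± 0.399, adjusted p = 0.0898). Its 60 min value stood far above the other 5.

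Part of the genes that build ribosomes fell, and few ribosomal protein genes passed the test. Of 49 nucleolar and biogenesis genes 15 fell and 0 rose, with a median of -0.12 and a share called of 30.6%. Nop56, a core protein of box C/D particles, read 12.01, 12.03 and 12.07 in hour 1 and 11.70, 11.60 and 11.70 in hour 2 (-0.37 ± 0.0461, adjusted p = 0.000934). Rrs1 (-0.37 ± 0.0701, adjusted p = 0.0063), Tsr1 (-0.42 ± 0.0783, adjusted p = 0.00576) and Utp18 (-0.34 ± 0.0647, adjusted p = 0.00629) fell with it. The count was 9 without 40 min, 8 without 80 min and 7 without 100 min. Of 38 ribosomal protein genes 2 rose, Rpl37 (0.30 ± 0.094, adjusted p = 0.0453) and Rps24 (0.11 ± 0.0259, adjusted p = 0.0139), and neither call held when arrays were centred on their medians. Of these 1 rose without 40, 60 or 80 min and 0 without 100 min. Among 38 proteasome subunits 4 fell by less than 1.25-fold, a share of 10.5% that was no larger than the 11.6% of all genes called lower. They were Psmc2 (-0.26 ± 0.0427, adjusted p = 0.00312), Psme3 (-0.20), Psmd8 (-0.17) and Psmd4 (-0.17). Without 40, 80 or 100 min 2 of them fell. Of 39 splicing genes the kinase Clk3 (-0.56 ± 0.0577, adjusted p = 0.000437) and Luc7l (-0.48 ± 0.0601, adjusted p = 0.000959) fell, and without the 60 min array 4 fell and 3 rose. The share called of the splicing list was 5.1%, below the 22.4% of all genes.

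Glycolysis and hypoxia genes had the largest share of rises among the 45 lists: 14 of 27 rose and 4 fell, with a median of 0.17. Pfkl, the liver-type phosphofructokinase subunit, read 9.59, 9.53 and 9.75 in hour 1 and 10.24, 10.10 and 10.35 in hour 2 (0.61 ± 0.0809, adjusted p = 0.00124). The mitophagy gene Bnip3, a target of hypoxia factors, read 8.15, 8.21 and 8.27 in hour 1 and 8.71, 8.60 and 8.76 in hour 2 (0.48 ± 0.0635, adjusted p = 0.00121). Pdk1, which holds pyruvate out of mitochondria, was uneven on its brighter probe set, at 8.34, 8.02 and 8.39 in hour 1 and 8.98, 8.37 and 8.94 in hour 2 (0.51 ± 0.156, adjusted p = 0.0431). There the 100 min value lay within hour 1, and the call was lost without 20, 40, 80 or 120 min. A second probe set of Pdk1 read 7.96, 7.95 and 8.08 and then 8.47, 8.52 and 8.42, with separate hours. With 1 array left out 10 to 14 of the list rose, and 2 fell without 40, 100 or 120 min. The hypoxia genes among the members did not all rise: Ero1a and Vegfa (-0.45 ± 0.0956, adjusted p = 0.00993) fell, and Vegfa was named after its values were seen. In the respiratory chain 10 of 61 rose by small amounts, led by Ndufb3 (0.32 ± 0.0524, adjusted p = 0.00347) and Ndufa8 (0.25 ± 0.0526, adjusted p = 0.0101) of complex I and Atp5c1 (0.21 ± 0.0455, adjusted p = 0.011) of the ATP synthase, and Ndufs7 fell (-0.22 ± 0.0602, adjusted p = 0.0305, lost without any array but that of 120 min). Beside the 10 rises of 61, the share of all genes called higher was 10.8%. The share of the list called in either direction, 18%, was below the 22.4% of all genes. The count of rises was 3 to 6 with any of the 6 arrays left out and 4 under median centring. Of 30 genes of cholesterol and fatty acid synthesis 6 rose, such as Acly (0.35 ± 0.0564, adjusted p = 0.00313), Elovl6 (0.33 ± 0.0679, adjusted p = 0.00953) and Stard4 (0.31 ± 0.0545, adjusted p = 0.00425), and 2 fell, Fdps among them (-0.30 ± 0.0575, adjusted p = 0.00715). The falls numbered 5 without 60 min and 1 without 20, 40, 80 or 100 min. The share called of this list was 26.7%, near the 22.4% of all genes, with a median of 0.002.

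Targets of p53, whose sites p63 can also bind, rose in part. Of 29 tested, 8 rose and 3 fell, with a median of 0.06, and 7 to 9 rose with 1 array left out. The share called was 37.9%, beside 22.4% of all genes, of which 10.8% were higher and 11.6% lower. Ccng1, cyclin G1, read 11.55, 11.28 and 11.23 in hour 1 and 12.09, 12.07 and 12.04 in hour 2 (0.71 ± 0.0769, adjusted p = 0.000501). It stepped up by 0.87 log2 units between 60 and 80 min. Psrc1, a spindle protein, read 8.80, 8.66 and 8.87 in hour 1 and 9.52, 9.66 and 9.56 in hour 2 (0.81 ± 0.0695, adjusted p = 0.000205), with wide separation. The standard targets Cdkn1a (-0.06 ± 0.0537, adjusted p = 0.453) and Mdm2 (0.13 ± 0.0812, adjusted p = 0.279) did not pass. A second probe set of Cdkn1a read 11.21, 11.07 and 11.13 in hour 1 and 10.84, 10.71 and 11.02 in hour 2 (-0.28), with separate hours, and was not tested. Plk3 and Gadd45a fell with the early genes. Of 17 BCL2 family and death genes the caspase Casp6 (0.49 ± 0.0562, adjusted p = 0.00062) and Bcl2l11 (0.22 ± 0.0654, adjusted p = 0.0369) rose and Bcl2l2 fell (-0.20 ± 0.0611, adjusted p = 0.0453). The calls of Bcl2l11 and Bcl2l2 were lost without 20, 40, 100 or 120 min, and that of Bcl2l11 also without 60 min. The share called of this list, 17.6%, was below the 22.4% of all genes.

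The calls of cell cycle genes depended on the 60 min array. Of 44 genes of G1/S and DNA replication 5 rose, and of 45 of mitosis and G2/M 8 rose, with 0 falling in either list and a median of 0.10 in both. The G1/S share, 11.4%, was near the 10.8% of all genes called higher, and the G2/M share, 17.8%, was above it. Both were below the 22.4% of all genes called in either direction. Against the mean of hour 1 the G1/S median was -0.10, -0.11 and 0.21 at 20, 40 and 60 min and 0.03, 0.08 and 0.22 at 80, 100 and 120 min. The G2/M median was -0.08, -0.16 and 0.25 and then 0.06, 0.03 and 0.21. The 60 min array thus stood as high as that of 120 min and above those of 80 and 100 min. Without it 20 of the G1/S and 16 of the G2/M genes rose. Without 80 min the G1/S count stayed at 5. With any other array left out the counts fell, to 3 (20 or 40 min) and 2 (100 or 120 min) for G1/S and to 4 (20 min), 2 (40 or 120 min), 5 (80 min) and 3 (100 min) for G2/M. Ccnb2, cyclin B2, read 9.76, 9.66 and 10.21 in hour 1 and 10.29, 10.33 and 10.55 in hour 2 (0.51 ± 0.131, adjusted p = 0.0219), with 16% of the difference between 60 and 80 min. The kinesin Kif20a (0.47 ± 0.117, adjusted p = 0.0208), the reductase subunit Rrm2 (0.34 ± 0.101, adjusted p = 0.0401) and the cyclins Ccne1 (0.33 ± 0.0991, adjusted p = 0.0399) and Ccnd3 (0.32 ± 0.0735, adjusted p = 0.0149) had also moved by 60 min, and the hours of Ccne1 overlapped. Their calls were each lost without at least 2 of the arrays. Ckap2, a spindle gene, rose at 60 min and again at 80 min, at 9.02, 8.96 and 9.39 in hour 1 and 9.71, 9.86 and 9.88 in hour 2 (0.69 ± 0.107, adjusted p = 0.00245). Ccne2, cyclin E2, rose only after 60 min, at 8.24, 8.07 and 8.14 in hour 1 and 8.55, 8.61 and 8.76 in hour 2 (0.49 ± 0.0714, adjusted p = 0.00197), and the mitotic kinase Bub1 read 8.78, 8.71 and 9.01 in hour 1 and 9.22, 9.24 and 9.60 in hour 2 (0.52 ± 0.111, adjusted p = 0.0104).

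**Figure D5:**
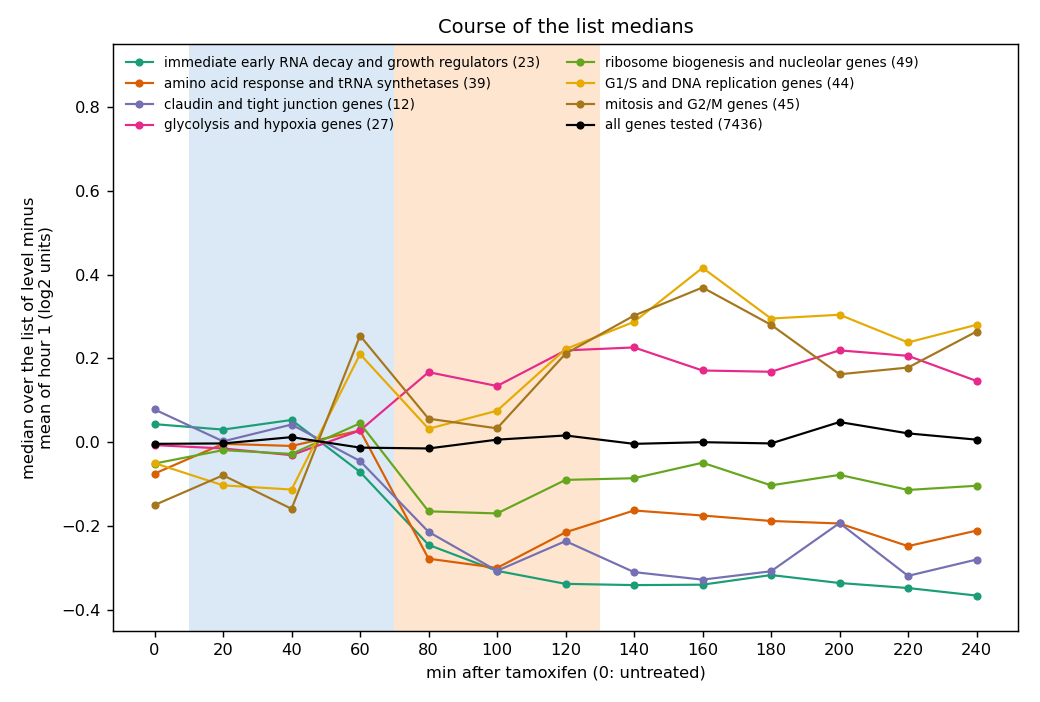
Median over the tested members of 7 lists and over all tested genes of the level minus the mean of hour 1 (log2 units, y axis) against min after tamoxifen (x axis, 0 for untreated cells); member counts stand in brackets, hour 1 is shaded blue and hour 2 orange. The amino acid, claudin and early regulator lists drop between 60 and 80 min, the glycolysis list rises there, and both cell cycle lists rise at 60 min (0.21 and 0.25) before falling back at 80 min.

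The smaller lists given next differed in their share of called genes. The shares of the clock list and of the glucocorticoid-responsive and mTOR inhibitor list were above the 22.4% of all genes. Those of the interferon and estrogen lists were below it. Of 14 clock genes the repressors Nfil3 (-0.56 ± 0.0642, adjusted p = 0.00062) and Bhlhe40 (-0.49 ± 0.0857, adjusted p = 0.0045) fell with the kinase Csnk1e (-0.24, named after its values were seen), and Tef (0.25 ± 0.0689, adjusted p = 0.0286) and Rora rose; 1 rose without 20 or 120 min and 0 without 100 min. Of 16 glucocorticoid-responsive and mTOR inhibitor genes 4 rose and 4 fell; Deptor, an mTOR inhibitor, rose (0.49 ± 0.0704, adjusted p = 0.00181) with Ddit4l and Sgk1, while Dusp1 fell. One further probe set of Deptor differed by -0.02. Of 9 interferon response genes the peptide transporter Tap1 rose (0.35 ± 0.0894, adjusted p = 0.0216, lost without 40 or 100 min) and Irf7 did not pass (0.27 ± 0.153, adjusted p = 0.24). Of 16 genes known to respond to estrogen receptors 6 were tested and 1 passed, Xbp1, which fell. In this list 2 fell without 60 or 120 min, and 1 rose without 60 or 80 min. With no cells lacking the fusion protein analysed, an effect of its receptor domain or of tamoxifen itself was not tested. Ccnd1, cyclin D1, missed the threshold (0.22 ± 0.0719, adjusted p = 0.0566). The reference genes Actb (-0.02 ± 0.0312, adjusted p = 0.68) and Gapdh (0.00 ± 0.0311, adjusted p = 0.971) did not pass.

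Summed markers of pigment cells were lower in hour 2 without overlap of the hours. The summed intensity of 13 pigment cell markers on the array was 8144 to 8960 in hour 1 and 7537 to 7872 in hour 2, and 2 of the 9 tested fell, Pmel (-0.26 ± 0.0704, adjusted p = 0.029) and Mitf (-0.22 ± 0.0647, adjusted p = 0.0367), with both calls lost without 40, 80, 100 or 120 min. That of the 12 Merkel and nerve markers was 5857 to 7286 and then 4879 to 5819, but 2222 to 2372 and then 2507 to 2570 without Krt8 and Krt18. Of its 4 tested members Krt8 and Krt18 fell and the myelin gene Mbp rose (0.28 ± 0.0579, adjusted p = 0.00903; a further probe set differed by -0.016), with the Merkel factor Atoh1 at the 12.5th and Krt20 at the 8.6th percentile. Of 22 fibroblast markers, summing to 9699 to 10718 and 10821 to 11323, 9 were tested and 1 rose, S100a4 (0.45 ± 0.0767, adjusted p = 0.0038), without which the sums were 7031 to 7352 and then 6872 to 7185, while Vim did not pass (-0.20 ± 0.107, adjusted p = 0.22). Immune markers (3261 to 3596 and 3257 to 3499; 2 tested, Cd68 at -0.23 ± 0.0925, adjusted p = 0.103 and Csf1r at 0.19 ± 0.0844, adjusted p = 0.137) and endothelial and muscle markers (5662 to 5751 and 5646 to 6235; 5 tested, Eng at 0.12 ± 0.0885, adjusted p = 0.357 and Des at 0.08 ± 0.0826, adjusted p = 0.555) had no member past the test, though 1 immune marker and 1 fibroblast marker fell without 60 min. In bulk RNA fewer cells of a type and less RNA per cell cannot be told apart. Of 13 tested keratinocyte identity markers 3 rose, Trp63 among them, and 2 fell. The rises numbered 5 without 20 min and 1 without 120 min, and the falls 1 without 20 or 100 min. The sums were 101802 to 105573 in hour 1 and 101900 to 103923 in hour 2. The part of other cells in the results was not tested.

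The change between hours 1 and 2 was set beside those between other hours, from 1 fit over all 13 arrays. That fit gave 2038 genes for hour 2 against hour 1. For hour 3 against hour 2 it gave 0 (993 at an unadjusted p under 0.05; smallest limma adjusted p 0.299), for hour 4 against hour 3 it gave 0 (1204; 0.187), and for hour 1 against the lone untreated array it gave 1, the fall of Egr1 (174; 0.0277), which was not called without the 40 or the 60 min array. Hour 4 against hour 3 gave 994 calls with array weights and 574 without the 240 min array. The difference of the first change from the last, which shares no array with it, passed the test in 652 genes (8.77%), 201 upward and 451 downward. That count was 91 without the 200 and 220 min arrays. With 1 array left out it lay between 232 (without 180 min) and 1481 (without 240 min), and it was 316, 351, 344, 355, 311 and 431 without 40, 100, 140, 160, 200 and 220 min. Cxcl5, Fabp4, Krt77, Egr2, Stbd1, Dusp10, Akap12 and Dusp1 were among the 652, each with the larger change between hours 1 and 2.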

How the data were processed

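The deposited values were probe set intensities on a linear scale, made by the authors and taken from the series matrix. Per the labels' protocols, Trizol RNA was labelled as biotinylated cRNA for Affymetrix arrays. The summary and scaling software was not given in the sources used here. The scaled arrays hide any change shared by most transcripts. Levels are log2(intensity + 16) with no further normalization, a scale that understates folds of dim genes. Of 22690 probe sets 20393 had 1 gene in the platform table, 691 several and 1606 none, and the last 2 kinds entered no test. Symbols of 20364 were updated through Entrez identifiers with RefSeq tables of GRCm38.p6. Each of 12394 genes was represented by its brightest probe set, and genes under the 40th percentile (log2 level 7.83) were left out, which left 7436. In the named genes that passed, 72 of 74 further probe sets above that level went the same way.

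Hours were compared with limma 3.58.1 in R 4.3.3 (lmFit, eBayes with an intensity trend, two-sided, Benjamini-Hochberg over all tested genes, threshold 0.05), on the 6 arrays of hours 1 and 2, and in a 5-level fit of all 13 for context. The median residual SD of a gene was 0.0764. The number of arrays limits the precision. Named genes are the 15 largest rises and 15 largest falls with separate hours, up to 4 called members of each of 45 lists (the 2 largest where fewer than 2 passed), a set of p63, keratin, p53, early, Notch and reference genes, and the 5 largest in each direction in the test of the first against the last change. Transcripts without a proper name were skipped. The hours compared, the gene lists and the named set were chosen with earlier results of these data known. The fit of hour 2 against hour 1 and the test of the first against the last change were tried on simulated data. The simulated arrays varied independently, so neighbouring times used as replicates were not examined there. Alternatives were other filters, pseudocounts, normalizations, probe set rules, moderation settings, array sets and weights, a line of time beside the step, and each array left out in turn.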

Additional observations from a re-analysis of the deposited data

Results flagged for a closer look

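In 652 genes the change from hour 1 to hour 2 differed from that from hour 3 to hour 4 (limma, test of the difference itself, adjusted over 7436 genes), but in 91 without the 200 and 220 min arrays. The named genes with the largest such differences, on the log2 scale, were Cxcl5 (1.64), Fabp4 (1.25) and Krt77 (1.05) upward and Stbd1 (-1.26), Egr2 (-1.20), Dusp10 (-1.18), Akap12 (-1.14) and Dusp1 (-1.06) downward. Ccne2 (1.17) and Bub1 (0.96) were also among them. Ccne2 read 7.73 and 7.97 at 200 and 220 min and 8.95 at 240 min, and Bub1 read 8.71, 8.76 and 9.53, so for both the drop in the 200 and 220 min arrays entered the difference.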

How the results depend on the processing

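Over the alternatives tried, the count of genes called between hours 1 and 2 stayed between 1324 and 2038, apart from the fits that left out an array and the fit with a line of time. Leaving out 1 array gave 907 to 1753 genes, 454 to 819 higher and 453 to 934 lower. A straight line of time beside the step left 16 genes, 10 higher and 6 lower. Line and step run together over 6 arrays, and the part of gradual change in the lost calls was not tested. The 10 were Fabp4, Krt77, Aox4, Ak1, Ccng1, Lor, Cpped1, Stom, Stfa3 and Sgk1, and the 6 were Stbd1, Slpi, Trib3, Aars, Eif6 and Cldn4; Stom, Stfa3, Eif6 and Aars were named after their values were seen. In that fit 1645 of 1662 calls kept their sign, 141 of 153 called named genes lost the call, and the step of Dsc2 (0.019), Smad7 (0.034), Ctsl (0.024), Ccne1 (-0.022) and Ccnb2 (-0.017) changed sign. Of the 153, 123 were called with each array left out. Genes with separate hours numbered 3490 to 3948 with 1 array left out. Leaving out an array cannot lower that count, so these values do not check it. Hour 4 against hour 3 gave 994 calls with array weights and 0 to 574 with 1 array left out, and hour 3 against hour 2 gave 0 throughout. Hour 1 against the untreated array gave 0 with median centring, 2 with no filter, 2 without the 200 and 220 min arrays, and 0 to 1 with 1 array left out. The test of the first against the last change gave 1422 genes with array weights, of which 537 were higher, and 885 lower. It gave 91, namely 48 and 43, when the 200 and 220 min arrays were left out. With 1 array left out it gave 232 to 1481 (73 to 684 higher, 159 to 797 lower). No paired analysis was possible because each time had 1 array and the labels carry no replicate numbers. Signal limits the dim genes: those left out by the filter, about 40% of all, have no value here.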
